A study of Mus musculus with 23 samples.

Results

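This set of 9 genes was followed across the myogenic time course of C2C12 cells: Scara3, Scara5, Igsf10, Cdhr1, Unc5c, Stk32b and Aoc3, which were far below WT in libraries labelled KO on at least the later days, and Selp and Foxd1, which were high there. They are 9 of 32793 gene rows, and all 9 were among the 14187 genes tested. They were picked by symbol because the difference between genotypes was extreme and depended on the day. The genotype differences below are therefore descriptions, with no test. Changes over time within a genotype enter that same choice. Their p-values for the 9 genes, given below, are thus not independent support. The working name of the group, surface genes, holds only in part. Unc5c, Cdhr1, Scara5, Aoc3 and Selp encode membrane proteins of the cell surface, whereas Foxd1 is a transcription factor, Stk32b an intracellular kinase, Igsf10 a secreted protein and Scara3 a scavenger receptor family member reported inside the cell.

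C2C12 is a mouse myoblast line that proliferates in rich medium and forms multinucleate myotubes after serum withdrawal. RNA came from control cells, called WT here, and from cells labelled Runx1KO, in growth medium containing 20% fetal bovine serum, called day 0, or after 1, 3 or 6 days in medium with 2% horse serum. The series text calls the last time day 5, and the sample titles were followed. Each group had 3 libraries except WT on day 0, of which 2 were analysed. Nothing in the sources says whether the Runx1KO cells were 1 clone or a pool, how the allele was made, or whether the replicates were separate cultures. The p-values thus measure the spread between these libraries, which may be technical.

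Runx1 mRNA was not lower in libraries labelled KO. It stood at 119.8 ± 2.15 CPM (SD, n = 3) against 84.0 ± 0.049 CPM (SD, n = 2) in WT on day 0, and at 311 ± 11.8 against 153 ± 10.4 CPM (SD, n = 3 each) on day 6. CPM is the estimated count scaled to library size. This goes against the label at the level of total Runx1 mRNA, which does not check the protein. Library totals ran from 22197606 to 23684077 counts. Replicate 2 of day 1 labelled KO stood apart: its chi-square per degree of freedom against the other replicates of its group was 61.1 and 61.3, against 3.10 to 27.4 for all other replicate pairs. Muscle identity matched the line: the summed TPM of 8 myoblast and muscle markers was 1161 to 3994 in every library. That sum was higher with the KO label on day 0, at 1523 to 1588 against 1161 to 1173 TPM in WT. It was also higher on day 3 (2586 to 3431 against 1846 to 1968) and day 6 (3660 to 3994 against 1621 to 1871). The day 1 ranges overlap. The part of this difference in the values of the genes followed here was not tested. TPM is abundance per transcript length and library.

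As background, RUNX1 is a DNA-binding factor that recognises a short core, TGTGGT in its commonest form, and often acts beside ETS and bHLH partners. Myoblasts in culture exchange signals through adhesion proteins, guidance receptors and secreted factors while they withdraw from the cell cycle and fuse. UNC5C is a netrin receptor of axon guidance, CDHR1 a cadherin best known from photoreceptors, SCARA5 a scavenger receptor that takes up ferritin, and AOC3 (VAP-1) an amine oxidase of vessels and fat. SELP, P-selectin, holds leukocytes to platelets and activated endothelium, and FOXD1 is a forkhead factor of kidney stroma and retina.

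Start-site sequence could be matched for 6 of the 9 genes in the RefSeq promoter table (GRCm38.p6, the assembly family of mm10), from 250 bases before to 50 after each start. Scara3, Scara5 and Aoc3 were not matched. Both matches to the RUNX core TGTGGT, searched on both strands, fell in genes of the lower group, and they are printed below with the core in capitals. The Cdhr1 window is chr14:37098298-37098597, minus strand, and the Unc5c window is chr3:141465314-141465613, plus strand.
Cdhr1: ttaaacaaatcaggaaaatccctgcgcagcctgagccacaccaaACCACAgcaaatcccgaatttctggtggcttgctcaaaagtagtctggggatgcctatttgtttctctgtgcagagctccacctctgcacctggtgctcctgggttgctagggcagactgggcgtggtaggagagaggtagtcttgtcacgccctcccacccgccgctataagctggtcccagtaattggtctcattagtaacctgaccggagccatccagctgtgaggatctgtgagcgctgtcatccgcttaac
Unc5c: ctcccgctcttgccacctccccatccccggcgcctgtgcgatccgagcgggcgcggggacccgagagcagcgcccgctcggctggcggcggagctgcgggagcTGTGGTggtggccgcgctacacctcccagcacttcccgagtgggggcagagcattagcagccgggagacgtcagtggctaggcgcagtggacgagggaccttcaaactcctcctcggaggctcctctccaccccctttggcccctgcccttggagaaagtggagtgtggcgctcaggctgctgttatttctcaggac
In Cdhr1 the core reads ACCACA from base -206, and in Unc5c it reads TGTGGT from base -147, counted from the start site. Across all 32851 promoters of this length, 16.8% hold the core, so 2 of 6 is a description and no enrichment. The windows of the 2 raised genes are shown beside them. The core is in neither, nor in the windows of Igsf10 and Stk32b, which are lower genes and not printed. Capitals mark nothing in them. The Selp window is chr1:164115014-164115313, plus strand, and the Foxd1 window is chr13:98353995-98354294, plus strand.
Selp: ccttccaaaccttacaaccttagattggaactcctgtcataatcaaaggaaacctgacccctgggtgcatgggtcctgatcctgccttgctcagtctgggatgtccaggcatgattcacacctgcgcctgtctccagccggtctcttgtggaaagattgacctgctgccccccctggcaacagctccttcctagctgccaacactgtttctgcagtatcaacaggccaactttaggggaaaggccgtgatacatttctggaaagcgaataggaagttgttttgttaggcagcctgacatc
Foxd1: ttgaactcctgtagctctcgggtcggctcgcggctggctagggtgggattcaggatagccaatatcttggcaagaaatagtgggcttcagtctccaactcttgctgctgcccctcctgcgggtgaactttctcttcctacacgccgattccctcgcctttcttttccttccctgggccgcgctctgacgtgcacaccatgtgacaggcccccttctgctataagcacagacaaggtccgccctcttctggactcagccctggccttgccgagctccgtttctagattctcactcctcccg
The less common RUNX core TGCGGT, present in 6.45% of promoters, and the ETS core CGGAAG, present in 16.9%, were in none of the 6 windows. The E-box CANNTG bound by myogenic bHLH factors was in Igsf10, Cdhr1, Selp and Foxd1, and in 72.3% of all promoters. Stk32b matched none of the motifs searched. No match says only that these letters are not in this window.

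Counting all 9 genes, 5 were at least 4-fold lower and 2 at least 4-fold higher in libraries labelled KO on day 0 (fitted log2 fold change of 2 or more in size). Of all genes tested, 2.8% were that much lower and 1.34% that much higher on that day. On day 1 the counts were 6 lower and 2 higher, against 3.02% and 1.46% of all genes. Without replicate 2 of day 1 labelled KO, Stk32b passed as well (-2.03 in place of -1.98), making 7 lower. The counts were 7 and 2 on day 3, against 2.85% and 2.21%, and 7 and 2 on day 6, against 2.55% and 3.45%. In CPM, the libraries of the genotypes did not overlap for 7 of the 9 genes on day 0 and for 9 of 9 on each later day. Of all genes tested, 51.6% did not overlap on day 0, 47.1% on day 1, 60.4% on day 3 and 51.7% on day 6. The choice of genes used these contrasts, so nothing is read from the counts.

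**Figure D1:**
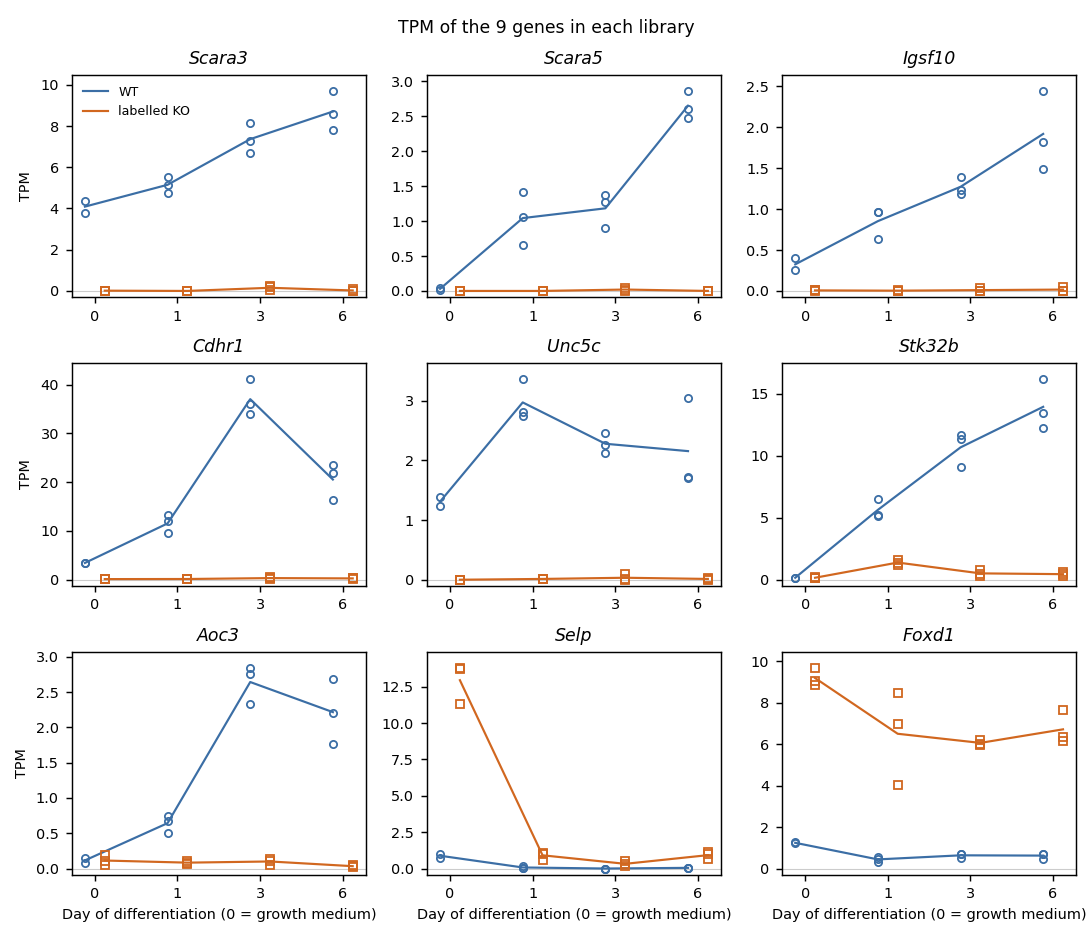
TPM of the 9 genes in each library (y axis, linear, own scale per gene) by day (x axis); circles are WT libraries, squares libraries labelled KO, and lines join group means. The 7 lower genes stay low on every day in the libraries labelled KO, and WT lies above them from day 1 on, and Selp and Foxd1 lie above WT on every day.

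Unc5c (chr3:141465564-141834924, plus strand) was the guidance receptor of the set and the earliest of the 7 lower genes to peak in WT. Its counts in WT were 184 and 163 on day 0, 347, 435 and 367 on day 1, 260, 274 and 305 on day 3, and 214, 219 and 351 on day 6. In the libraries labelled KO they were 0, 0 and 0, then 1, 2 and 1, then 1, 11 and 0, then 4, 0 and 1. No library labelled KO reached any WT library. Pooled over the group, WT was at least 170-fold higher on day 0, where the libraries labelled KO hold no count and a floor of 3 counts over the group stands in. It was 279-fold higher on day 1 and 155-fold on day 6. On day 3 it was 67.6-fold higher, and 11 of the 12 counts behind that value lie in replicate 2 of the libraries labelled KO. WT Unc5c rose by day 1 (log2 fold change 1.06, SE 0.27, adjusted p = 0.00238, edgeR quasi-likelihood test). Its values on days 3 and 6 were 0.63 (adjusted p = 0.0513) and 0.52 (adjusted p = 0.101, edgeR), neither past the threshold of 0.05. The day 3 value passed in 16 of 31 alternative fits, for example with an adjusted p of 0.0445 under RLE scaling. The day 6 value passed in 5, with DESeq2 (0.0257), log2(TPM + 1) (0.00523), log2(TPM + 0.1) (0.0267), only the groups compared (0.0409) and without replicate 2 of day 3 labelled KO (0.0368, adjusted p). Without replicate 1 of day 6 labelled KO, the fitted day 6 difference between genotypes was -8.69 in place of -7.17.

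Cdhr1 (chr14:37077849-37098347, minus strand) had the highest group mean TPM of the 9 genes, in WT on day 3. WT libraries held 204 and 209 counts on day 0, 681, 765 and 561 on day 1, 1994, 2246 and 1897 on day 3, and 919, 1268 and 1218 on day 6. Libraries labelled KO held 9, 7 and 8, then 6, 9 and 11, then 8, 36 and 16, then 15, 19 and 15. The peak on day 3 reached 37.0 ± 3.67 TPM (SD, n = 3) in WT, where the other genotype stood at 0.337 ± 0.244 TPM (SD, n = 3). WT was 25.2-fold higher on day 0 (95% counting interval 16.7 to 39.9) and 98.8-fold higher on day 3 (76.7 to 129.7). WT Cdhr1 rose by 1.61 on day 1 and 3.25 on day 3 (log2, adjusted p = 2.04e-07 and 3.77e-12, edgeR). All 4 WT groups are apart from each other in the order day 3, day 6, day 1, day 0. Cdhr1 kept a low count in every library labelled KO, as Stk32b and Aoc3 did, while Scara3, Scara5, Igsf10 and Unc5c were at 0 in 5 to 10 of those 12 libraries.

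The pair of scavenger receptor genes, Scara5 and Scara3, lie on the same chromosome with 154.6 kb and 3 protein-coding genes between them. Scara3 (chr14:65919394-65953978, minus strand) was already on in WT growth medium, with 205 and 178 counts. WT counts then ran at 228, 251 and 220 on day 1, 313, 349 and 291 on day 3, and 344, 390 and 392 on day 6. Libraries labelled KO held 0, 1 and 1, then 0, 0 and 0, then 8, 10 and 3, then 3, 0 and 0. WT was 281-fold higher on day 0 (counting interval 77.2 to 2328), at least 226-fold on day 1, 43.8-fold on day 3 and 371-fold on day 6. Without replicate 1 of day 6 labelled KO, which holds all 3 counts, the fitted log2 difference of day 6 was -11.52 in place of -8.36. Within WT the day 1 value was 0.20 on the log2 scale (adjusted p = 0.401, edgeR), not past the threshold. Scara3 rose in WT by day 3 (0.68, adjusted p = 0.00485) and day 6 (0.91, adjusted p = 0.000325, edgeR). The day 3 call was lost without WT day 0 replicate 2 (0.61, adjusted p = 0.0556).

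Scara5 (chr14:65666403-65764826, plus strand), the ferritin receptor, was near 0 in WT growth medium and appeared with differentiation medium. Its WT counts were 2 and 1 on day 0, 33, 54 and 73 on day 1, 62, 43 and 67 on day 3, and 129, 126 and 130 on day 6. All 9 libraries labelled KO of days 0, 1 and 6 held no count, and those of day 3 held 0, 2 and 1. On day 0 a difference was not detectable at this depth, and the gene is among the 5 lower ones of that day through 3 WT counts alone. WT was at least 51.7-fold higher on day 1 and at least 127-fold on day 6. WT Scara5 rose by 4.96 on day 1 and 6.24 on day 6 (log2, adjusted p = 1.59e-06 and 2.86e-08, edgeR). So the neighbouring family members differed in WT growth medium, where Scara3 stood at 4.09 ± 0.41 TPM and Scara5 at 0.030 ± 0.014 TPM (SD, n = 2).

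Igsf10 (chr3:59316735-59344438, minus strand), an immunoglobulin superfamily protein, rose over the whole WT course. WT counts were 55 and 35 on day 0, 132, 134 and 90 on day 1, 160, 182 and 160 on day 3, and 247, 208 and 292 on day 6. Libraries labelled KO held 1, 1 and 0, then 0, 0 and 2, then 0, 4 and 0, then 6, 0 and 0, so 7 of those 12 libraries held none. WT was 66.0-fold higher on day 0, 173-fold on day 1, 121-fold on day 3 and 123-fold on day 6, with the day 0 interval running from 17.8 to 553.5. The counts behind the last 3 values lie in 1 library each: without replicate 3 of day 1, replicate 2 of day 3 or replicate 1 of day 6, all labelled KO, no count is left. The fitted log2 differences then went from -7.18 to -9.84, from -6.80 to -10.37 and from -6.85 to -10.93, values that depend on the prior count. WT Igsf10 rose by 1.32 on day 1 (adjusted p = 0.00349) and by 2.40 on day 6 (adjusted p = 3.50e-06, edgeR). Without WT day 0 replicate 2 the day 1 value was 1.06 (adjusted p = 0.067). The gene overlaps the end of Med12l, and strand use in counting is not stated. Med12l itself was too low to be tested.

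Stk32b and Aoc3, like Scara5, were low in both genotypes on day 0. Stk32b (chr5:37446825-37717153, minus strand), a serine/threonine kinase, had 8 and 7 counts in WT and 9, 7 and 7 in libraries labelled KO on day 0, a ratio of 1.05. WT counts were then 235, 236 and 304 on day 1, 494, 503 and 400 on day 3, and 547, 616 and 659 on day 6. Libraries labelled KO had 64, 72 and 54 on day 1, 36, 21 and 15 on day 3, and 28, 14 and 21 on day 6. Of the 7 lower genes, only Stk32b rose by every later day in both genotypes. It rose by 5.00 in WT and by 2.95 in libraries labelled KO by day 1 (log2, adjusted p = 5.50e-12 and 2.55e-08, edgeR). By day 6 the values were 6.25 and 1.36 (adjusted p = 2.73e-14 and 0.00225, edgeR). WT was 3.96-fold higher on day 1, 18.7-fold on day 3 and 28.6-fold on day 6. The group of libraries labelled KO was highest on day 1, at 1.39 ± 0.19 TPM (SD, n = 3), and no day 1 library overlaps one of day 3 or day 6.

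Aoc3 (chr11:101330606-101339430, plus strand), the vascular amine oxidase, had 5 and 7 counts in WT and 2, 6 and 9 in libraries labelled KO on day 0. WT reached 39, 30 and 28 counts on day 1, 132, 154 and 162 on day 3, and 102, 159 and 116 on day 6. Libraries labelled KO stayed at 4, 5 and 4, then 4, 3 and 5, then 3, 2 and 1. WT was 7.24-fold higher on day 1, 36.1-fold on day 3 and 62.1-fold on day 6. WT Aoc3 rose by 2.32 on day 1 and 4.55 on day 3 (log2, adjusted p = 3.37e-05 and 3.40e-10, edgeR). In libraries labelled KO it fell by 1.53 by day 6 (adjusted p = 0.0217, edgeR), a call that rests on 17 against 6 counts. That call was lost without replicate 3 of day 0 (-1.03, adjusted p = 0.212) or replicate 3 of day 6 (-1.22, adjusted p = 0.092). It was also lost with log2(TPM + 1) (adjusted p = 0.312, limma) and with only the groups compared (adjusted p = 0.0902, edgeR).

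**Figure D2:**
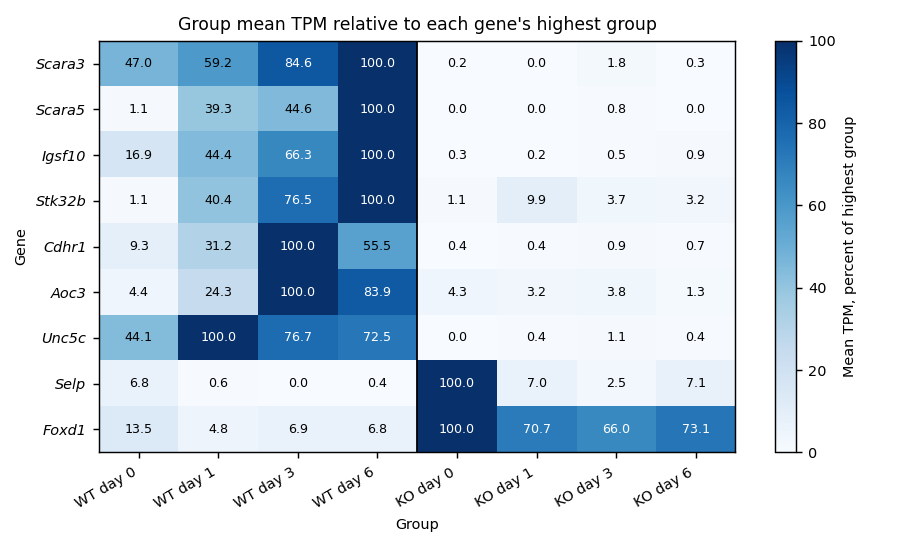
Group mean TPM as a percentage of each gene's highest group (colour and printed number), with genes as rows and the 8 groups as columns. Scara3, Scara5, Igsf10 and Stk32b peak in WT on day 6, Cdhr1 and Aoc3 on day 3 and Unc5c on day 1, while Selp and Foxd1 are highest in libraries labelled KO on day 0.

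Selp (chr1:164115264-164150026, plus strand) was raised in libraries labelled KO and fell in both genotypes once serum was lowered. On day 0 it had 521, 612 and 662 counts in libraries labelled KO and 33 and 35 in WT. On day 1 the counts were 28, 50 and 46 against 1, 3 and 1, on day 3 14, 23 and 8 against 0, 0 and 0, and on day 6 43, 31 and 35 against 1, 1 and 1. The libraries labelled KO were 18.0-fold higher on day 0 (counting interval 14.1 to 23.3), 25.6-fold on day 1 (10.7 to 80.1), at least 15.5-fold on day 3 and 36.7-fold on day 6 (counting interval 12.2 to 181.0). Without WT day 1 replicate 2, which holds 3 of the 5 WT counts of that day, the fitted log2 difference of day 1 was 5.26 in place of 4.57. Selp fell by 3.93 in libraries labelled KO and by 4.33 in WT by day 1 (log2, adjusted p = 4.77e-12 and 1.40e-07, edgeR). The level left on day 1 in libraries labelled KO, 0.91 ± 0.27 TPM (SD, n = 3), overlaps the WT level of growth medium, 0.88 ± 0.18 TPM (SD, n = 2). P-selectin is a marker of endothelium and platelets, so their markers were read beside it. Kdr, Emcn and Tie1 of 7 endothelial markers were at or under 3 counts in every library, and the 7 summed to 0.07 to 0.18 TPM in libraries labelled KO and 0.17 to 0.20 TPM in WT on day 0. On day 3 the endothelial sum was higher with the KO label, at 0.73 to 0.86 against 0.35 to 0.60 TPM. On day 1 that sum was lower with the KO label, at 0.20 to 0.29 against 0.40 to 0.44 TPM, and the day 6 ranges overlap. Pooled Vwf counts were 7 with the KO label and 0 in WT on day 0, 15 against 34 on day 1, 72 against 27 on day 3 and 165 against 80 on day 6. Vwf is 1 of the 7 endothelial markers, and on day 0 their sum was not raised with it. Pf4, Gp9 and Gp6 of 6 platelet markers were likewise at or under 3 counts throughout. Ppbp of that list held 158 pooled counts with the KO label and 37 in WT on day 0, a mean of 4.01 against 1.44 TPM. The platelet sum was 4.21 to 5.86 TPM in libraries labelled KO and 2.13 to 2.52 TPM in WT on day 0. The part of these markers in the values of Selp was not tested. On day 1 it was 1.61 to 1.85 TPM in libraries labelled KO and 2.28 to 2.70 TPM in WT. Selp overlaps the non-coding Gm16548, too low to be tested.

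Foxd1 (chr13:98354245-98356705, plus strand), the transcription factor of the set, was higher in libraries labelled KO on every day. It had 325, 299 and 303 counts there on day 0 and 42 and 40 in WT. On day 1 the counts were 274, 128 and 218 against 14, 18 and 10, on day 3 199, 193 and 201 against 21, 15 and 22, and on day 6 190, 259 and 216 against 15, 22 and 20. The ratio was 7.71 on day 0, 15.2 on day 1, 10.6 on day 3 and 11.8 on day 6. Its 4 groups labelled KO all stood above its 4 WT groups. Foxd1 fell in WT by 1.63 by day 1 (adjusted p = 0.000362) and in libraries labelled KO by 0.64 (adjusted p = 0.00703, edgeR). The second fall was not called when the fit held only the groups compared (adjusted p = 0.0751). Replicate 2 of day 1 was the lowest of its group, and without it the fitted day 1 genotype difference was 4.23 in place of 3.93 (log2). By day 6 the falls were 1.17 in WT (adjusted p = 0.00366) and 0.56 in libraries labelled KO (adjusted p = 0.0113, edgeR). The latter was lost without replicate 1 of day 6 (-0.47, adjusted p = 0.056).

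**Figure D3:**
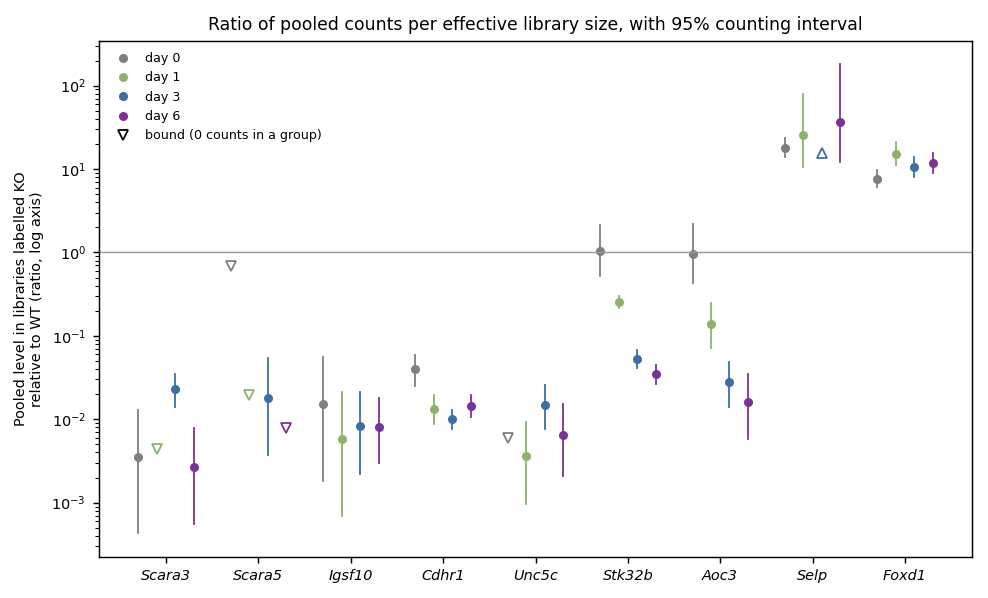
Pooled level in libraries labelled KO relative to WT (y axis, log scale; 1 means equal) for each gene and day, with 95% counting intervals; open triangles are bounds where a group held no count. Stk32b and Aoc3 start at 1 on day 0 and move down with the days, whereas the other genes are away from 1 on all days with a usable count.

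Over time, 6 of the 9 genes rose and 2 fell in WT on each of days 1, 3 and 6 against day 0. Of all genes tested in WT, 27.1% rose and 27.6% fell on day 1, 29.2% and 29.0% on day 3, and 32.6% and 31.1% on day 6. In libraries labelled KO 1 gene rose and 2 fell on day 1, where 27.2% and 25.2% of all genes did; leaving out any 1 library kept these counts at 1 and 2. On day 3 the counts were 4 and 2 (30.4% and 27.2% of all genes), and on day 6 they were 1 and 3 (36.6% and 33.5%). The 1 rise on day 6 became 3 without replicate 2 of day 3 labelled KO, where Cdhr1 and Unc5c passed as well (adjusted p = 0.0303 and 0.0394, edgeR), and 2 without replicate 1 of that group (Cdhr1, adjusted p = 0.0452, edgeR). DESeq2 gave 3 rises. The count was 2 with no filter, with log2(TPM + 0.1), with only the groups compared and with the replicate block. These time contrasts rest on the same libraries as the choice of genes, so they are not independent of it. The day 3 rises in libraries labelled KO were of Stk32b, Scara3, Cdhr1 and Unc5c. They start from almost nothing: Scara3 went from 2 to 21 pooled counts, and it rose by 3.14 (log2, adjusted p = 0.00124, edgeR). The calls for Unc5c and Cdhr1 were lost without replicate 2 of day 3 labelled KO (adjusted p = 0.311 and 0.318, edgeR), and the count of rises went from 4 to 2. Among the 3 day 3 libraries labelled KO, that one held the highest share of the WT level for Scara3 (3.24%), Scara5 (3.59%), Igsf10 (2.46%), Cdhr1 (1.81%) and Unc5c (4.05%). Leaving it out put the fitted day 3 genotype difference of Cdhr1 at -7.35 in place of -6.62 and that of Unc5c at -8.76 in place of -6.04, and left Igsf10 with no count in its group. On day 6 replicate 1 labelled KO held all counts of Scara3 and Igsf10 and 4 of the 5 counts of Unc5c.

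Levels per transcript length put Cdhr1 first among the 9 genes by their highest group, at 37.0 TPM, followed by Stk32b (14.0), Selp (13.0), Foxd1 (9.18) and Scara3 (8.70). Unc5c (2.97), Scara5 (2.65), Aoc3 (2.64) and Igsf10 (1.92) were weakly expressed even at their peak. For Scara3, Igsf10, Cdhr1 and Unc5c all WT groups lay above all groups labelled KO without overlap. For Scara5 and Aoc3 the WT day 0 group overlapped the highest group labelled KO. For Stk32b the 3 differentiated WT groups came first and WT day 0 fell among the lowest.

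Across the 8 group means of log2 CPM, the 7 lower genes correlated with each other between 0.627 (Scara3 with Stk32b) and 0.988 (Igsf10 with Cdhr1). The points share their libraries and the genotype contrast that chose the genes, so these values are descriptions. Over the 4 WT groups alone some were far lower: Scara3 with Unc5c went from 0.985 over 8 groups to 0.203 over 4, and Unc5c with Aoc3 from 0.793 to 0.467. Others were higher: Scara3 with Stk32b went from 0.627 to 0.831, and Scara5 with Stk32b from 0.910 to 0.988. Over all 8 groups, with Selp or Foxd1 the lower genes correlated between -0.986 and -0.759. The genes most like each member were sought among all genes tested, leaving out model names. Unc5c was nearest to Rftn1 (Pearson's r 0.998) and Tril (0.997), Igsf10 to Adamts3 (0.997) and Pcdhac2 (0.997), and Scara3 to Bnc1 (0.992) and Cadm3 (0.990). Tspan8, a tetraspanin, was the nearest gene to Scara5 (0.990) and the second nearest to Aoc3 (0.979). Cdhr1 was nearest to Rab38 (0.994) and Hs3st1 (0.993), Stk32b to St3gal2 (0.993) and Sh3d19 (0.986), and Foxd1 to Hoxb13 (0.990) and Slfn3 (0.987). The near matches of Selp were Chka (0.993) and Llph (0.978), whose day 0 CPM in libraries labelled KO was 31.6 and 47.7 against 23.5 and 35.3 in WT.

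The genes next to the members on the chromosome were not part of the choice and could be tested. Of 35 neighbours, the nearest 2 protein-coding genes on each side, 19 were tested. In libraries labelled KO 2 were higher and 4 lower on day 0, 7 and 5 on day 1, 7 and 5 on day 3, and 4 and 6 on day 6. These are 31.6%, 63.2%, 63.2% and 52.6% of the 19, where 17.5%, 42.2%, 43.2% and 42.9% of all genes were called. Of the tested neighbours, 4 lay within 5 kb of a member, and 3 of these 4 were at least 4-fold lower on day 6. They are the only neighbours of the 19 that far apart in either direction on that day, when 2.55% of all genes tested were at least 4-fold lower. The 5 kb limit and the day were not fixed in the planned comparison, so no result on distance is read from this count. Of the 3, F5 lies beside the raised member Selp. On day 1, 4 of the 19 were at least 4-fold apart, among them Clu, 14.5 kb from Scara3 and higher.

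The gene 3.8 kb from Cdhr1 on the same strand, 2610528A11Rik, which encodes the ligand of the receptor GPR15, followed the course of Cdhr1. Its WT counts were 301 and 264 on day 0 and 2629, 2990 and 2033 on day 6, against 11, 15 and 0 and then 50, 70 and 60 in libraries labelled KO. Its log2 fold change was -4.97 on day 0, -6.27 on day 1, -6.03 on day 3 and -5.40 on day 6 (adjusted p at most 3.38e-09, edgeR). Without replicate 2 labelled KO the values of days 0 and 3 were -5.63 and -6.63. Its correlation with Cdhr1 over the 8 groups was 0.979. Bmpr1b, a BMP receptor 2.2 kb from Unc5c on the opposite strand, had log2 fold changes of -1.57, -2.18, -2.61 and -3.21 on days 0, 1, 3 and 6 (adjusted p at most 0.000145, edgeR). Without replicate 2 labelled KO the day 6 value was -3.82. It held 93 to 133 counts in WT and 7 to 44 in libraries labelled KO, with no overlap. F5, coagulation factor V, lies 1.8 kb from Selp on the same strand and went the other way. WT libraries held 9 to 31 counts of F5, and 11 of the 12 libraries labelled KO held none, the other holding 1. WT F5 was 33.7-fold higher on day 0 and at least 27.0-fold on day 6 (adjusted p = 0.00113 and 1.89e-06, edgeR). The day 0 ratio rests on that 1 count (interval 5.48 to 1390), in replicate 1 of day 0 labelled KO. Without that library the fitted log2 difference of F5 was -6.58 in place of -4.65. Aoc2, 0.8 kb from Aoc3, was not called on any day (log2 fold change between -0.52 and 0.32, adjusted p 0.0755 to 0.972, edgeR). Clu, 14.5 kb from Scara3, was higher on days 1, 3 and 6 in libraries labelled KO (log2 fold change 2.31, 1.90 and 0.83). Where strand is not known, reads running past a gene end into its neighbour cannot be told apart from that neighbour's own.

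**Figure D4:**
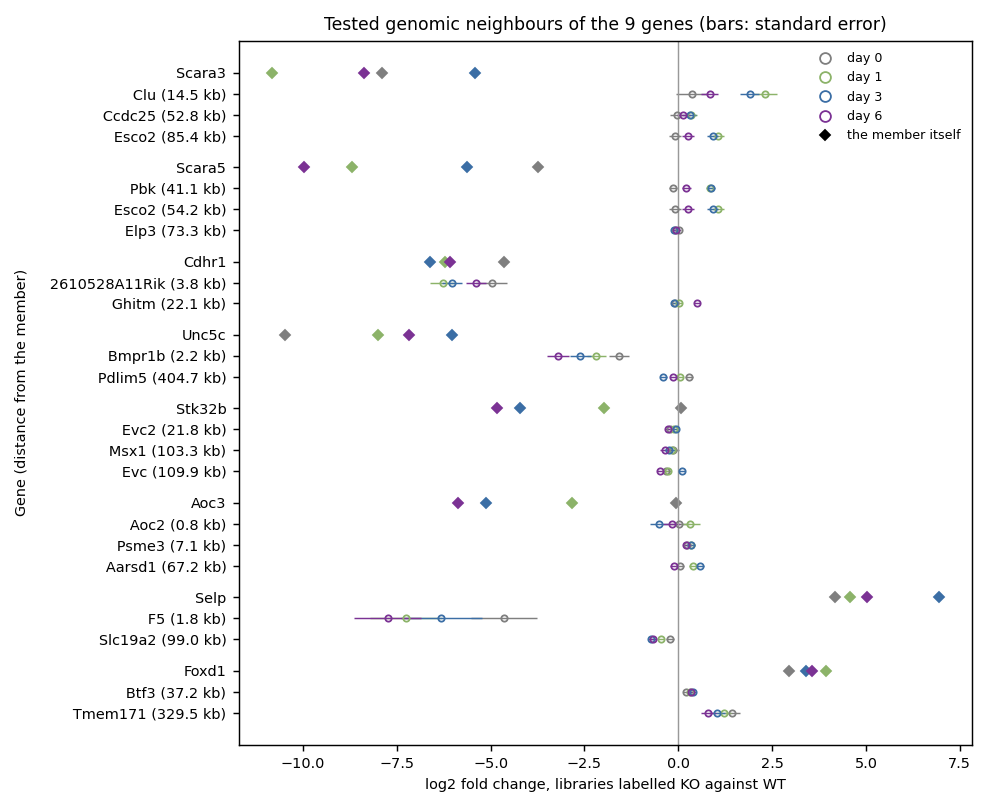
Log2 fold change of libraries labelled KO against WT (x axis) for each member with tested neighbours (diamonds) and those neighbours (circles, bars are SE), coloured by day; distance from the member is in brackets. 2610528A11Rik and Bmpr1b lie on the side of their member, F5 lies opposite to Selp, and most others are near 0; fitted values of genes with groups at 0 counts depend on the prior count.

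Relatives of the 9 genes gave a wider view: 198 genes of 9 families or pathways, of which 135 were tested. On days 0, 1, 3 and 6, 31.9%, 49.6%, 57.0% and 59.3% of them differed between genotypes (edgeR), where 17.5%, 42.2%, 43.2% and 42.9% of all genes did. The families did not share this evenly. The kinases were under the share of all genes on days 0, 1 and 6 (12.5%, 29.2% and 37.5%), and the forkhead genes were close to it on each day (17.4%, 43.5%, 47.8% and 47.8%). On day 1 the scavenger receptors (33.3%) and the genes of selectin biology (28.6%) were under it as well. More were lower than higher on each day (27 against 16, 43 against 24, 49 against 28 and 46 against 34). The 16 higher on day 0 became 9 and 10 without WT day 0 replicates 1 and 2 in turn (lower: 20 and 24), 10 with either log2 TPM scale, and 27 with only the groups compared (lower: 35). Their median log2 fold change stayed between -0.17 and -0.06 where that of all genes lay between -0.001 and 0.04. The 9 genes themselves are left out of these counts.

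Among 12 tested scavenger receptors, relatives of Scara3 and Scara5, 3 were lower on day 0, and 4 were lower and 5 higher on day 6. Cxcl16, a scavenger receptor and chemokine, was lower on every day, with 25 to 46 counts in WT and 0 or 1 in libraries labelled KO on day 6 (49.4-fold, interval 13.3 to 413.8). Colec12, a collectin, was lower as well, with log2 fold changes of -1.94, -2.18, -1.41 and -1.42 on days 0, 1, 3 and 6. Cd36, a fatty acid transporter, went the other way late: it was at 0 in both genotypes on day 0 and at 294, 439 and 333 against 7, 6 and 4 counts on day 6 (63.4-fold, interval 39.4 to 109.3). Of 11 iron and ferritin genes, 1 was higher and 1 lower on day 0, and 4 and 3 on day 6. Tfrc, the transferrin receptor, was higher by 0.68, 0.53 and 1.19 on days 1, 3 and 6 (log2, adjusted p at most 0.00113, edgeR). Tfr2 and Slc40a1 of the same list went the other way. Tfr2 was 9.21-fold lower on day 1, 9.32-fold on day 3 and 3.94-fold on day 6, and its genotypes overlapped on day 0. Slc40a1 was 2.97-fold lower on day 1 and 2.46-fold on day 3, and its genotypes overlapped on day 6.

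Among 12 tested netrin pathway genes, relatives of Unc5c, 2 were higher and 1 lower on day 0, and 6 and 4 on day 6. Unc5a, a receptor of the same family, was higher on each day (log2 fold change 2.94, 2.84, 2.18 and 4.79, adjusted p at most 0.0176, edgeR). It was low throughout, with pooled counts of 147 against 5 on day 6, and without WT day 6 replicate 3 the value of that day was 6.31. The day 0 call was lost without WT day 0 replicate 1 (1.99, adjusted p = 0.235) or replicate 2 of day 0 labelled KO (2.78, adjusted p = 0.0512), and the value was 6.15 without WT day 0 replicate 2. Of 16 cadherin genes, 4 were higher and 3 lower on day 0, and 6 and 4 on day 6. Cdh10 was higher on each day, though on day 0 the call was lost without either WT library or without replicate 2 or 3 labelled KO (adjusted p 0.0756 to 0.193, edgeR). The ratio was 8.92-fold on day 6 (interval 5.73 to 14.6). Cdh3 was lower with the KO label on days 0 and 1, at 3 against 27 and 7 against 89 pooled counts. Its fitted day 0 value was -3.57, or -6.79 without replicate 1 labelled KO and -2.87 without WT replicate 1. On day 6 Cdh3 was at 13 against 37 pooled counts, a difference not called in the main fit. Of 21 immunoglobulin superfamily adhesion genes, 8 were lower and 3 higher on day 0, and 10 and 3 on day 6, with a median of -0.44 on day 6. Cadm3 held no count in libraries labelled KO on days 0, 1 and 6, and WT was at least 81.7-fold higher on day 6. Igsf5 was at least 43.2-fold higher in WT on that day.

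Among 9 amine oxidases, relatives of Aoc3, 5 were lower and 1 higher on day 0 and again on day 6. Lox, which crosslinks collagen and elastin, was lower on each day, with log2 fold changes of -1.64, -1.23, -1.71 and -0.86 (adjusted p at most 4.06e-06, edgeR). Of 7 tested genes of selectin biology, 2 were lower and 2 higher on day 0, and 4 and 1 on day 6. Cd34, a sialomucin and selectin ligand, was lower on each day, with log2 fold changes of -3.06 to -2.81, whereas its relative Podxl was higher (0.70 to 1.59), on day 0 not without WT replicate 2 (adjusted p = 0.0927, edgeR). Of 24 kinases related to Stk32b, 3 were higher on day 0, and 5 were higher and 4 lower on day 6. Of 23 forkhead genes, 4 were lower on day 0, and 8 were lower and 3 higher on day 6. Foxf1 was lower on every day, by 8.66-fold on day 6 (interval 5.71 to 13.7), the opposite of Foxd1.

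Markers of other cell types were read beside these genes, since fewer cells of a type and less RNA per cell cannot be told apart in bulk RNA. The summed TPM of 7 fibroblast markers was 437 to 520.5 in WT and 178 to 276 in libraries labelled KO on day 0, and 4078 to 5067 against 2463 to 2533 on day 6. Thy1 was at or under 3 counts in every library. The fibroblast sum was lower in libraries labelled KO on each day, and its part in the result was not tested. In WT, Col1a1 and Col3a1 hold most of it, with group means of 1919 and 2341 TPM on day 6, where the libraries labelled KO had 253 and 1060. The list did not move as one. On day 1 Dcn went with the sum (means of 24.6 TPM in WT and 15.1 with the KO label). Its means on days 0 and 3 were 0.30 and 26.0 TPM in WT but 1.02 and 47.2 with the KO label, and on day 6 it ran from 27.3 to 34.1 TPM in WT and from 37.8 to 60.6 with the KO label. Ly6a averaged 200.1 TPM in WT and 1082 with the KO label on day 6. The 6 smooth muscle markers summed to 2124 to 2345 TPM in WT and 1481 to 1534 in libraries labelled KO on day 6. They were also lower with the KO label on day 1 (470 to 572 against 702 to 764) and day 3 (1275 to 1735 against 2511 to 2781). Their day 0 ranges, 438 to 459 TPM in WT and 420 to 658 with the KO label, overlap. Of 7 adipocyte markers, Adipoq, Plin1, Lep and Cfd were at or under 3 counts throughout. The adipocyte sum was nevertheless lower with the KO label on each day without overlap, at 13.0 to 13.1 against 21.4 to 22.3 TPM in WT on day 0 and 11.5 to 13.4 against 16.3 to 17.1 on day 6. Pparg held most of it in WT on day 0 (17.8 TPM), and its part in the values of Aoc3 and the other lower genes was not tested. Of 6 photoreceptor markers, Crx, Nrl and Pde6b were at or under 3 counts throughout. The photoreceptor sum was 1.19 to 1.34 TPM in WT and 0.52 to 0.98 with the KO label on day 3, and it never passed 1.68 TPM, while Cdhr1 reached 41.1. Of 7 macrophage markers, Ptprc, Adgre1, Tyrobp and Fcer1g were at or under 3 counts in every library. The macrophage sum was 18.8 to 19.3 TPM in WT and 14.7 to 16.4 with the KO label on day 0, and 15.9 to 19.8 against 12.3 to 12.9 on day 3, while the ranges of days 1 and 6 overlap. Mean Csf1r on day 6 was 1.12 TPM in WT and 0.25 with the KO label, and mean Cd68 was 5.58 and 16.3 TPM. The part of these markers in the result was not tested.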

How the data were processed

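Poly(A)-selected RNA of 23 C2C12 libraries was sequenced, per the labels' protocols. Per the submitters' processing notes, Bowtie2, RSEM and mm10 were used; their order, versions and strand setting are not given in the sources used here. The authors deposited estimated counts per gene symbol as whole numbers, and TPM for the same genes. Of 32793 genes, 12326 were at 0 in every library; 790 zero counts had a TPM above 0. Columns were matched to samples by name. Replicates of a group differed by more than sampling noise.

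Counts were filtered with filterByExpr (minimum count 10, total 15), leaving 14187 genes, and TMM-scaled. The quasi-likelihood test of edgeR 4.0.16 (R 4.3.3) was run on 1 group-means model of all 23 libraries, for genotype on each day (not tested for the 9 genes) and each day against day 0 in each genotype. P-values were Benjamini-Hochberg adjusted over all genes per contrast, at 0.05. On simulated data of the day 6 genotype contrast (14187 genes, 200 changed) it recovered 90% of 2-fold and 100% of 4-fold changes, and 5.94% of its calls were false. The changed genes were drawn from those above 1 CPM in WT, with the spread of the fitted model. These rates thus do not cover genes near 0 counts, nor a contrast in which 42.9% of all genes were called. Folds between groups pool counts over scaled library sizes, with exact 95% binomial intervals; the floor is 3 counts over a group. Intervals and floors cover counting error only. Depth was 22197606 to 23684077 counts per library.

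The 9 genes and all lists were chosen with earlier results of these data known. Named genes were the 9, Runx1, the 2 tested genes most correlated with each, neighbours called on any day, and up to 4 called genes per list with a log2 fold change of at least 1; Aoc2 was named besides, after its values were seen. Positions are from the RefSeq table of GRCm38.p6 and strands from GENCODE. Alternatives were RLE scaling, library size only, no filter, DESeq2 1.42.0, limma 3.58.1 on log2(TPM + 1) and log2(TPM + 0.1), only the groups compared, a replicate block, and leaving out each library.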

Additional observations from a re-analysis of the deposited data

Results flagged for a closer look

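In 3 cases a gene moved one way since day 0 in every WT library and the opposite way in every library labelled KO; these differences between genotypes were not tested. Dmpk, a muscle kinase of the Stk32b-related list, changed by 0.08 in WT and by -0.56 in libraries labelled KO on day 1 (log2, difference -0.64). Clu, the neighbour of Scara3, changed by -0.25 in WT and by 1.70 in libraries labelled KO on day 1 (difference 1.95). The WT changes of Dmpk and Clu are small, and that of Clu rests on 18 pooled counts on day 0 and 24 on day 1. Esco2, between Scara5 and Scara3, changed by -0.51 in WT and by 0.49 in libraries labelled KO on day 3 (difference 1.00).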

How the results depend on the processing

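No value changed direction past a threshold under any alternative. With limma on log2(TPM + 1), which compresses low genes by construction, the members at least 4-fold lower numbered 1, 2, 3 and 3 on days 0, 1, 3 and 6 in place of 5, 6, 7 and 7, and the higher ones 1 on days 1, 3 and 6 in place of 2; with log2(TPM + 0.1) 3 were lower on day 0. In libraries labelled KO, the falls by day 1 numbered 1 in place of 2 with only the groups compared. The rises by day 3 numbered 1 with log2(TPM + 1) and 2 with only the groups compared, in place of 4. The rises by day 6 numbered 2 with no filter, log2(TPM + 0.1), only the groups compared or the replicate block, and 3 with DESeq2, in place of 1. Related genes higher on day 0 numbered 10 with either TPM scale and 27 with only the groups compared (16 otherwise), and on day 3 18 with either TPM scale (28 otherwise). Neighbours higher on day 0 numbered 1 with library size only, no filter, either TPM scale or the replicate block, and 4 with only the groups compared (2 otherwise); neighbours lower on day 3 numbered 9 with log2(TPM + 0.1) (5 otherwise). The causes of these shifts other than the first were not tested.

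Leaving out each library in turn gave 2 to 4 rises by day 3 and 1 to 3 by day 6 in libraries labelled KO, 2 to 3 falls there by day 6, 1 to 3 neighbours higher and 3 to 5 lower on day 0, and 9 to 23 related genes higher and 20 to 33 lower on day 0; members at least 4-fold lower on day 1 numbered 6 to 7. The replicate numbers do not pair the libraries (mean correlation of same-numbered deviations 0.049, 0.003, 0.017 and -0.094 on days 0, 1, 3 and 6), and beyond the counts above the replicate block moved none by over 1.5 times. For single genes, 8350 values kept their side or moved within the spread, 84 moved by more, 84 passed the threshold newly and 100 no longer passed. Depth limits Scara5 on day 0 and every fold against 0 counts.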
